A study of Mus musculus with 48 samples.

Results

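Ccdc107 (ENSMUSG00000028461) was the most counted gene model of the 4T1 lysates, and it was selected for description by its place beside Rmrp and its share of the counts. It is 1 of the 26899 genes in the table. 4T1 is a transplantable mammary carcinoma line of the mouse, strain BALB/cfC3H. The cells carried either the empty vector 8166-M24-658 or a lentiviral, FLAG-tagged human CNOT7 cDNA under a murine Pol2 promoter, and the over-expressing cells were selected with blasticidin. They keep their own Cnot7. CNOT7 is the wild type. D40A has no deadenylase activity, M141R does not bind the scaffold CNOT1, and E247A/Y260A does not bind the adaptor TOB1. From each lysate an input library was made of rRNA-depleted total RNA, and a RIP library of the RNA held by the M2 anti-FLAG antibody without crosslinking. The 48 libraries form 10 groups of 5, numbered 6 to 10, except that D40A has 4 input and 4 RIP libraries, with no replicate 7.

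CCDC107 is a coiled-coil protein with a membrane-spanning segment, and little is known of what it does. Rmrp is the RNA subunit of RNase MRP, a nucleolar ribonucleoprotein that cleaves the precursor of ribosomal RNA. It is short, abundant, made by RNA polymerase III and ends without a poly(A) tail. Loss of human RMRP function causes cartilage-hair hypoplasia. CNOT7 is a poly(A)-shortening enzyme of the CCR4-NOT complex.

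The genes lie head to head on opposite strands and overlap. In GENCODE M21 (GRCm38), Rmrp occupies chr4:43492788-43493058 on the minus strand, and Ccdc107 occupies chr4:43492900-43495921 on the plus strand. This is not the build that the submitters' processing notes name (mm9), so the positions are those of the annotation only. Of 6 annotated Ccdc107 transcripts, 2 are protein-coding, and the nearer of their first exons begins 304 bases beyond the 5′ end of Rmrp. The noncoding transcript Ccdc107-206 starts inside Rmrp instead. All 124 bases of its exon 1, chr4:43492900-43493023, lie opposite Rmrp, at Rmrp positions 36 to 159 counted from its 5′ end. These are 8.02% of the 1547 exon bases of Ccdc107 and 45.8% of the 271 bases of Rmrp. The shared letters are shown because a read from them can be assigned to either gene, by strand alone. In the Rmrp transcript, written 5′ to 3′ in DNA letters, capitals mark the bases opposite Ccdc107-206 exon 1, and the exon itself follows.
Rmrp-201: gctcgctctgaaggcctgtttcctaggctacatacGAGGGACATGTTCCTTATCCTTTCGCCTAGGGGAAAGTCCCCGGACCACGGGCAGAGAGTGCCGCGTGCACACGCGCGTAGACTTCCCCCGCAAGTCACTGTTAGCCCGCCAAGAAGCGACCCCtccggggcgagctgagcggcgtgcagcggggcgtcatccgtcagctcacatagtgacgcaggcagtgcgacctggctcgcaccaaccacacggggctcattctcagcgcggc
Ccdc107-206 exon 1: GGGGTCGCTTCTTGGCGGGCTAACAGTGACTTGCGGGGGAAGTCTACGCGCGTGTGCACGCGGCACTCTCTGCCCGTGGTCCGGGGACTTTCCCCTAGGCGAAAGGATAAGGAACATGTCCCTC

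**Figure D1:**
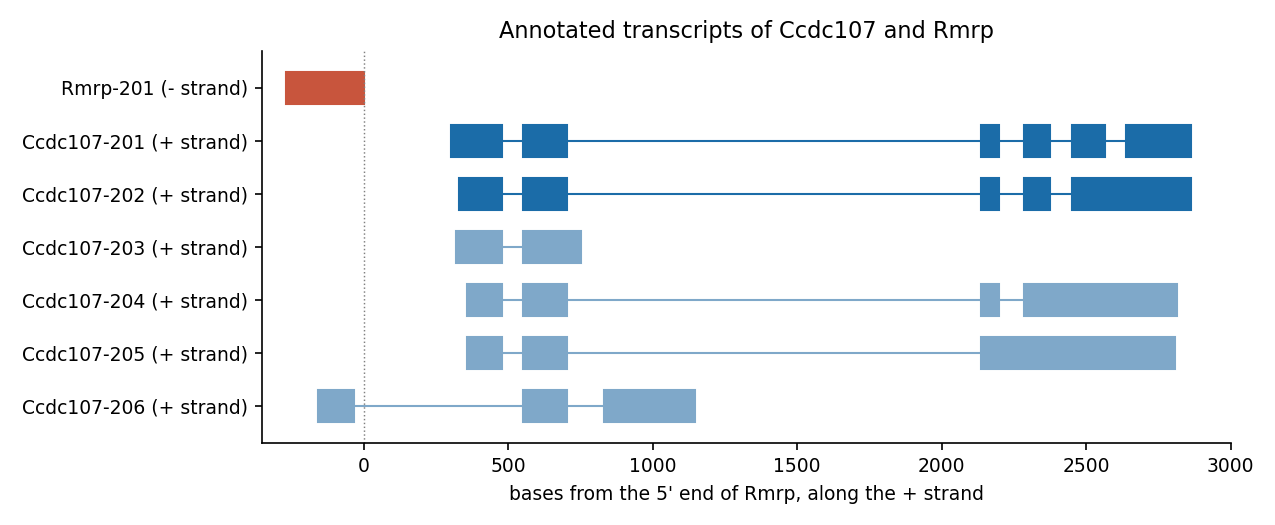
Annotated transcripts of Ccdc107 (dark blue protein-coding, light blue noncoding) and of Rmrp (red), with boxes for exons and lines for introns, against the distance in bases from the 5′ end of Rmrp along the plus strand. Ccdc107-206 alone has an exon within Rmrp, and the coding transcripts begin 304 bases or more to its right.

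Between the 5′ end of Rmrp and the starts of the 5 other Ccdc107 transcripts lies the stretch chr4:43493115-43493339 (GRCm38.p6, plus strand, RefSeq promoter table), shown because Rmrp and those 5 are read outward from it. Ccdc107-206 is read through it, as part of its first intron. Capitals mark the octamer ATGCAAAT, letters known from the distal element of small nuclear RNA promoters. It begins 216 bases upstream of the Rmrp 5′ end. Searched on both strands, the octamer is found in the same 225-base part of 1.51% of 32851 RefSeq promoters. TATAAA also occurs in the stretch, as in 10.6% of them, and lies 164 bases upstream of the Rmrp 5′ end. The stretch stops short of that end, so the bases next to Rmrp are not shown. The matches do not overlap and are letters only.
Interval between Rmrp and the 5 other Ccdc107 transcripts: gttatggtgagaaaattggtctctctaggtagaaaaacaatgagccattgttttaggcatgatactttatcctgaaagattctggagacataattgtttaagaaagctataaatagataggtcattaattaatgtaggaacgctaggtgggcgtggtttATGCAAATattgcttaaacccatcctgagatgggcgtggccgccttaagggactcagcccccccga

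Total counts ranged from 337861 to 826768 in the inputs and from 1305627 to 10719137 in the RIP libraries, where D40A replicate 9 stood apart as the deepest. CNOT7 input replicate 10 stood apart in make-up. Over 1031 genes averaging at least 50 counts, its log2 shares had a median Pearson r of 0.287 with the other inputs, against 0.771 to 0.905 for each of the 23 others. The model listed as Galnt2, with 31899 to 98509 counts in the others, had 0 in it, and Patl2 had 1 against 5166 to 10952. Results that rest on this library are therefore given without it as well, an alternative added after the data were seen.

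The strand on which reads were counted is not given in the sources used here. Some models opposite a short RNA or a widely expressed gene held far more input counts than that gene: Ccdc107 opposite Rmrp, Gm28872 opposite Rnu11, Patl2 opposite B2m (180673 against 297 counts, summed over the inputs) and Snx22 opposite Ppib (92137 against 435). Whether the counts listed for a gene are of its own strand or of the opposite one cannot be told apart from the table. This holds for the marker, neighbour, RNase protein and Rmrp counts that follow, so a low count does not show that a gene was little expressed.

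Mammary epithelial markers were few in the inputs. Krt7 had 7 to 47 counts, Epcam 4 to 34 and Cdh1 1 to 30, while Krt8, Krt18 and Krt19 had medians of 1 to 2. The summed markers of leukocytes (3 genes) had 0 to 4 counts per input, of endothelium (2 genes) 0 to 12, of fibroblasts (3 genes) 0 to 6 and of adipocytes (2 genes) 0 to 2.

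Ccdc107 took 12.9% of all input counts summed, and it was the first model in 14 of 24 inputs and never below the third. It took 12.2% and was first in 13 of 23 without CNOT7 input replicate 10. Its share was the value it was selected on, so the levels are a description. In bulk lysates, fewer copies per cell and fewer cells with the transcript cannot be told apart. In vector inputs 6 to 10 it held 6.19%, 9.80%, 3.06%, 11.5% and 19.6% of the library's counts. CNOT7 inputs had 4.18%, 11.2%, 3.16%, 16.8% and 37.0% in the same order of numbers. The spread within each construct was thus wide, from 4.65 to 11.7-fold between its lowest and highest library, where the 11.7-fold of CNOT7 was 5.33-fold without its replicate 10. For D40A the shares were 8.56% (replicate 6), 4.28% (8), 17.6% (9) and 28.5% (10). E247A/Y260A inputs held 6.78%, 11.3%, 4.87%, 20.3% and 22.6%. Finally, M141R inputs held 7.32%, 16.0%, 4.15%, 14.1% and 23.5%. Replicate 8 was the lowest and replicate 10 the highest input of all 5 constructs. Replicate 6 was the second lowest input in each construct. The 95% Wilson interval of any input share was at most 0.322 percentage points wide, which covers counting error only, since the reads carry no molecular identifiers.

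Averaged over constructs, the share was 3.90% ± 0.775 (SD, n = 5) in replicate 8, 6.61% ± 1.61 (n = 5) in replicate 6 and 12.1% ± 2.73 (n = 4) in replicate 7. It was 16.1% ± 3.37 (n = 5) in replicate 9 and 26.2% ± 6.81 (n = 5) in replicate 10, or 23.6% ± 3.69 (n = 4) without the CNOT7 library. In this order each number overlapped with the next, except that all replicate 6 inputs lay below all replicate 7 inputs. A test of any replicate effect in the inputs, with construct in the fit, gave an adjusted p of 9.24e-07 for Ccdc107 (edgeR's quasi-likelihood F test, Benjamini-Hochberg over 3848 genes). In that test 69.4% of genes passed, so a call is the common outcome. The adjusted p was 1.44e-12, and 2985 of 3798 genes passed, without CNOT7 input replicate 10. Replicate 6 inputs were lower than the mean of the other numbers by a log2 difference of -0.91 (SE 0.29, adjusted p = 0.0123), although replicate 8 was lower still. That contrast called 47.2% of genes, and its p rests on the spread within numbers, not between them. Without CNOT7 input replicate 10 the difference was -0.87 (SE 0.15, adjusted p = 1.80e-05). The call was lost without CNOT7 input replicate 6, where the difference was -0.74 and the adjusted p 0.0558. An exact two-sided permutation test on the log2 share, less its construct mean, gave -0.86 (p = 0.10, adjusted p = 0.201 over 2 contrasts), and -0.75 (p = 0.124) without CNOT7 input replicate 10. What a replicate number stands for is not given in the labels.

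**Figure D2:**
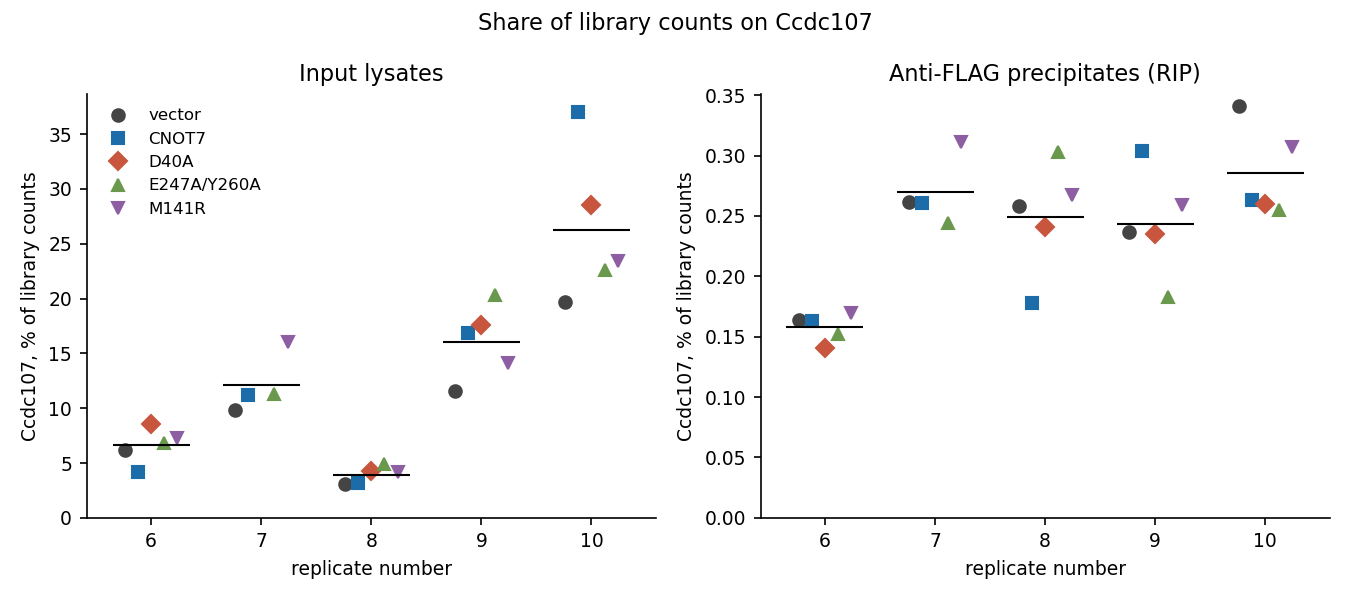
Percent of each library's counts on Ccdc107 (y axes from 0, on separate scales for inputs and RIP), by replicate number (x axis); each symbol is 1 library, its shape and colour the construct, and the bars are means over constructs. Input means run from 3.90% in replicate 8 to 26.2% in replicate 10, and RIP shares stay between 0.141% and 0.341%.

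In the RIP libraries Ccdc107 was a minor model, with 0.229% of the summed counts and a rank of 12 to 15. Vector RIP 6 to 10 held 0.164%, 0.261%, 0.258%, 0.237% and 0.341%. CNOT7 RIP held 0.163%, 0.261%, 0.178%, 0.304% and 0.263%. D40A RIP held 0.141% (replicate 6), 0.241% (8), 0.235% (9) and 0.260% (10). The ranges of these 3 constructs overlapped, with the highest library in vector and the lowest in D40A. E247A/Y260A RIP had 0.152%, 0.244%, 0.303%, 0.183% and 0.255%. M141R RIP had 0.169%, 0.312%, 0.267%, 0.259% and 0.307%. Replicate 6 was the lowest RIP library of every construct, at 0.158% ± 0.0115 (SD, n = 5), and its 5 libraries did not overlap with any other RIP library. By share of all counts, the other numbers had means of 0.269%, 0.249%, 0.244% and 0.285% (replicates 7, 8, 9 and 10) and overlapped.

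The input share exceeded the RIP share of the same construct and number in all 24 pairs, by 11.8 to 140-fold with a median of 47.5-fold. The 140-fold is that of CNOT7 replicate 10, and without it the highest was 111-fold and the median 46.3-fold. No test is given, since the gene was selected on the first of these values. The totals differ in make-up. In the RIP libraries 7 other models took 92.4% to 95.5% of all counts, led by ENSMUSG00000045999, and in the inputs the same models took 0.614% to 5.75%. With these 7 left out of the totals, Ccdc107 held 2.60% to 5.93% (median 4.22%) of the remaining RIP counts and 3.08% to 37.6% (median 11.4%) of the remaining input counts, at most 28.8% without CNOT7 input replicate 10. The ranges then overlapped.

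The replicate number also entered the RIP values. The F test of any replicate effect in RIP gave an adjusted p of 1.27e-07 for Ccdc107, in a test that called 78.6% of 1320 genes. Replicate 9 RIP against the other RIP libraries differed by -0.20 on the log2 scale (SE 0.10, adjusted p = 0.0974), a contrast in which 55.9% of genes passed. This value depended on single libraries and on scaling. It passed without D40A RIP replicate 6 (-0.30, adjusted p = 0.0151), replicate 8 (-0.26, 0.0406) or replicate 10 (-0.28, 0.0159), and it was 0.079 without E247A/Y260A RIP replicate 9. With library size alone it was 0.062. The replicate pattern itself differed between RIP and input (interaction F test over 48 libraries, adjusted p = 1.83e-05), and 12.4% of 6931 genes passed that test. Without CNOT7 input replicate 10 its adjusted p was 3.14e-12.

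The construct comparisons ask whether the CNOT7 proteins changed the amount of Ccdc107 counts in lysates or in precipitates. Ccdc107 passed none of them. Mean input shares were 10.0% ± 6.29 (SD, n = 5) for vector, 14.5% ± 13.8 (n = 5) for CNOT7 (8.84% ± 6.41, n = 4, without its replicate 10), 14.7% ± 10.7 (n = 4) for D40A, 13.2% ± 7.97 (n = 5) for E247A/Y260A and 13.0% ± 7.59 (n = 5) for M141R. Against vector input, the log2 differences after TMM scaling were 0.62 (SE 0.56) for CNOT7, 0.75 (SE 0.59) for D40A, 0.42 (SE 0.56) for E247A/Y260A and 0.43 (SE 0.56) for M141R. The adjusted p was 0.999 or more in each (edgeR's quasi-likelihood test over 6931 genes). The difference for CNOT7 rested on its replicate 10, the library at 37.0%, and was -0.043 without it. Single libraries moved the others too, with each of the 48 left out in turn: 0.30 to 1.04 for D40A, 0.10 to 0.72 for E247A/Y260A and 0.21 to 0.74 for M141R. The test of any construct effect in the inputs gave an adjusted p of 1 for Ccdc107 and called 0.0289% of genes.

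Same-numbered inputs varied together, and within numbers the vector was the lowest input of replicates 7, 8, 9 and 10. CNOT7 input exceeded vector input in 4 of 5 pairs, D40A in 4 of 4, E247A/Y260A in 5 of 5 and M141R in 5 of 5. The 4 comparisons share the vector libraries. In an exact two-sided sign-flip test of the paired log2 shares, p was 0.375, 0.125, 0.0625 and 0.0625, and the smallest that 5 pairs allow is 0.0625, or 0.125 with 4. None passed adjustment over 11 contrasts (0.344 or more). Blocking on the replicate number among the inputs alone gave log2 differences of 0.35, 0.67, 0.42 and 0.38 with adjusted p of 0.912, 0.999, 1.000 and 0.998, so the pairing changed no call. Without CNOT7 input replicate 10 these were 0.063, 0.71, 0.43 and 0.40, with standard errors of 0.17 to 0.19 and adjusted p of 0.282 to 0.999. Before adjustment over 3798 genes, edgeR's p in that fit was 0.741, 0.000625, 0.0210 and 0.0301, and 0.00465 for any construct effect (adjusted p = 0.504). The D40A contrast called 5 genes there and the others 0. CNOT7 then exceeded vector in 3 of 4 pairs (exact sign-flip p = 0.75).

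Mean RIP shares were 0.252% ± 0.0634 (n = 5) for vector, 0.234% ± 0.0606 (n = 5) for CNOT7, 0.219% ± 0.0534 (n = 4) for D40A, 0.227% ± 0.0598 (n = 5) for E247A/Y260A and 0.263% ± 0.0571 (n = 5) for M141R. Without its replicate 9, the deepest library, D40A RIP averaged 0.214%. The vector cells hold no FLAG-CNOT7, and the mean of their precipitates was the second highest of the 5. On TMM-scaled library sizes, or without the 7 leading models, it was the highest (1.32% and 4.83%). Log2 differences from vector RIP were -0.42 (SE 0.56) for CNOT7, -0.32 (SE 0.59) for D40A, -0.44 (SE 0.56) for E247A/Y260A and -0.28 (SE 0.56) for M141R, with adjusted p of 0.935 or more. The last was 0.058 with library size alone. With single libraries left out, the value for D40A ran from -0.48 to -0.18 and that for M141R from -0.42 to -0.18. The standard errors of this fit rest on a spread estimated from inputs and RIP libraries together. RIP libraries fitted alone gave differences from vector of -0.33, -0.27, -0.26 and -0.18, with standard errors of 0.28 to 0.30. Blocking these on the replicate number lowered the standard errors to 0.13 to 0.14, and none of the 4 passed in either fit. The blocked differences were -0.30, -0.24, -0.28 and -0.16 in the same order, with adjusted p of 0.413 or more. Before adjustment over 1320 genes, edgeR's p in the blocked fit was 0.0266 for CNOT7, 0.0887 for D40A, 0.0345 for E247A/Y260A and 0.212 for M141R. For any construct effect in that fit it was 0.145 (adjusted p = 0.713). Among same-numbered libraries, D40A RIP was below vector RIP in 4 of 4 pairs, CNOT7 and E247A/Y260A each in 4 of 5, and M141R RIP was above it in 4 of 5. The exact two-sided sign-flip test gave p of 0.125, 0.312, 0.312 and 0.375, and none passed adjustment (0.344 or more). These comparisons share the vector RIP libraries. Without TMM scaling all 4 differences from vector RIP were higher, by 0.11 to 0.34. Against CNOT7 RIP, the mutants differed by 0.10 (D40A, SE 0.59), -0.02 (E247A/Y260A, SE 0.56) and 0.14 (M141R, SE 0.56). Without M141R RIP replicate 7 the last was -0.025, and the sign of the other two turned with single libraries as well. Neither the test of any construct effect in RIP nor that on the ratio of RIP to input passed (adjusted p of 1 in both). Of all genes, 0% passed in each of the 11 pairwise contrasts. At an unadjusted p under 0.05, 27 to 479 of 6931 genes were below it, and DESeq2 called at most 4 genes in any of the 11.

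**Figure D3:**
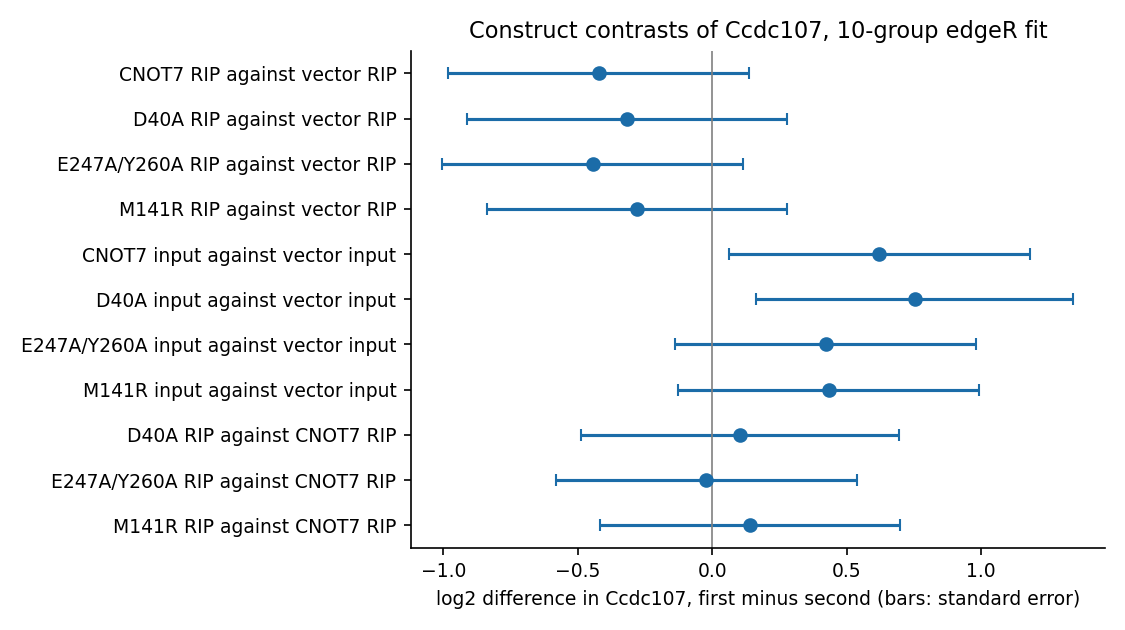
Log2 differences in Ccdc107 (x axis, first group minus second) for the 11 construct contrasts (y axis) in the edgeR fit of 10 groups; points are estimates and bars 1 standard error. RIP contrasts with vector lie below 0 and input contrasts above it, with standard errors of 0.56 to 0.59. The bars rest on a spread estimated from inputs and RIP libraries together. RIP libraries fitted alone gave standard errors of 0.28 to 0.30 for the contrasts with vector RIP.

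Rmrp itself was counted far less than Ccdc107. Its own entry (ENSMUSG00000088088) had 59 to 408 counts in the inputs (median 192) and 1 to 84 in RIP (median 22). Per kilobase of exon, the median level of Ccdc107 was 72615 CPM and that of Rmrp 1230 CPM in the inputs, and 1659 against 28.9 CPM in RIP. Every library thus had more counts on the coding gene's model than on the RNA subunit opposite. The ratio of Ccdc107 to Rmrp counts ran from 139 to 569 in the inputs, with a median of 289. By number, it averaged 218 ± 46.3 (SD, n = 5) in replicate 8, 252 ± 49.9 (n = 5) in replicate 6, 294 ± 74.1 (n = 4) in replicate 7, 337 ± 46.3 (n = 5) in replicate 9 and 519 ± 49.7 (n = 5) in replicate 10 (508 ± 50.3, n = 4, without the CNOT7 library). Replicate 10 lay above all others, so the genes did not vary in one fixed proportion. In RIP the median ratio was 301.

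Across the 24 inputs, the log2 shares of the genes rose together (Pearson r = 0.898, Spearman rho = 0.869). After construct and replicate means were removed r was 0.772. These values were 0.888, 0.855 and 0.742 without CNOT7 input replicate 10. In the 24 RIP libraries r was 0.284, and -0.277 after the means were removed, where Rmrp counts are few. These are descriptions across libraries that share totals, constructs and replicate numbers. Rmrp gave a replicate effect in the inputs (adjusted p = 3.53e-05) and in RIP (adjusted p = 0.000999). Its replicate 6 inputs were lower than the mean of the other numbers by a log2 difference of -0.58 (SE 0.23, adjusted p = 0.0408). Without CNOT7 input replicate 10 that difference was -0.53 (SE 0.19, adjusted p = 0.0167). As for Ccdc107, the lowest mean input share of Rmrp was that of replicate 8 (0.0190%), below replicate 6 (0.0263%).

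**Figure D4:**
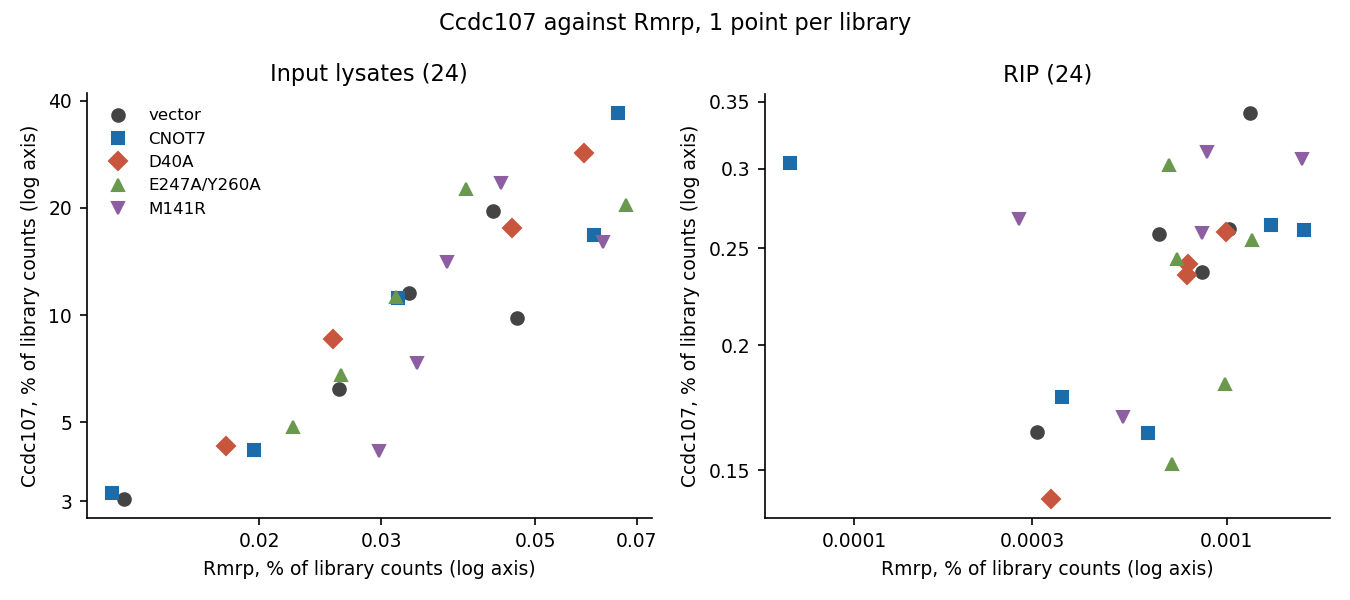
Percent of library counts on Ccdc107 (y, log axis) against percent on Rmrp (x, log axis), 1 symbol per library with shape and colour for the construct, inputs left and RIP right. Inputs rise together (r = 0.898, n = 24), and in RIP the library at the far left is CNOT7 replicate 9, with 1 Rmrp count.

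Few counts fell on the genes around the pair. GENCODE M21 lists 10 genes within 50 kb of Ccdc107, counting a second Rmrp entry (ENSMUSG00000115420) that was not analysed here, and 2 of them are on its strand. Of 9 with counts in the table, 6 averaged under 10 counts in both kinds of library, the highest being Car9, a carbonic anhydrase, with 5.54 in the inputs. Arhgef39, 221 bases beyond the Ccdc107 end on the minus strand, had 0 to 8 counts per input. The 3 others were Rmrp, Cd72 with 30 to 182 counts (median 108) and Gm12454 with 3 to 91 (median 18). None of the 9 came near the count of Ccdc107. For comparison Actb, a housekeeping gene, had a median of 11 counts per input and Gapdh 2. Cd72, a B-cell surface protein, moved the other way in replicate 6 inputs (log2 difference 0.49, SE 0.18, adjusted p = 0.0252, and 0.56 without CNOT7 input replicate 10). The B-cell marker Cd79a had 0 to 2 counts per input, and the Cd72 model lies opposite Tesk1 over 1603 bases.

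Other short noncoding RNAs of ribonucleoproteins were compared in the same way. Of 16 listed, 12 had an entry, and 4 averaged at least 10 counts in the inputs. Rn7s1, an RNA of the signal recognition particle, had 0 to 3243 counts (median 1562). Rn7s2, its second copy, had 0 to 111, and Rpph1, the RNA of the related RNase P, had 3 to 85. Near-identical copies such as Rn7s1 and Rn7s2 can exchange reads, so their split is uncertain. Of the 5 of this list tested for a replicate effect in the inputs, 3 passed, beside the 69.4% of all genes given above.

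Of the models beside these RNAs, 2 overlapped one on the opposite strand. They include Ccdc107, which was selected on its own share, so no general pattern is drawn from them. Ccdc107, opposite Rmrp, had a median of 59941 counts per input. Gm28872, opposite Rnu11, the U11 RNA of the minor spliceosome, had 8 to 769 (median 178), and Rnu11 itself had 0 to 2. The 4 models on the opposite strand without overlap were far lower. Parp2, 74 bases from Rpph1, had 0 to 8, Rps29 beside Rn7s1 0 to 3, Poldip3 beside Rnu12 0 to 8 and C920006O11Rik beside Rn7sk 0 to 3. Models that overlapped on the same strand were low too, with 0 to 5 for Ccnb1ip1 over Rpph1 and 0 to 24 for Rps3a1 over Rnu73b. With 2 models in the first class, no test was made.

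**Figure D5:**
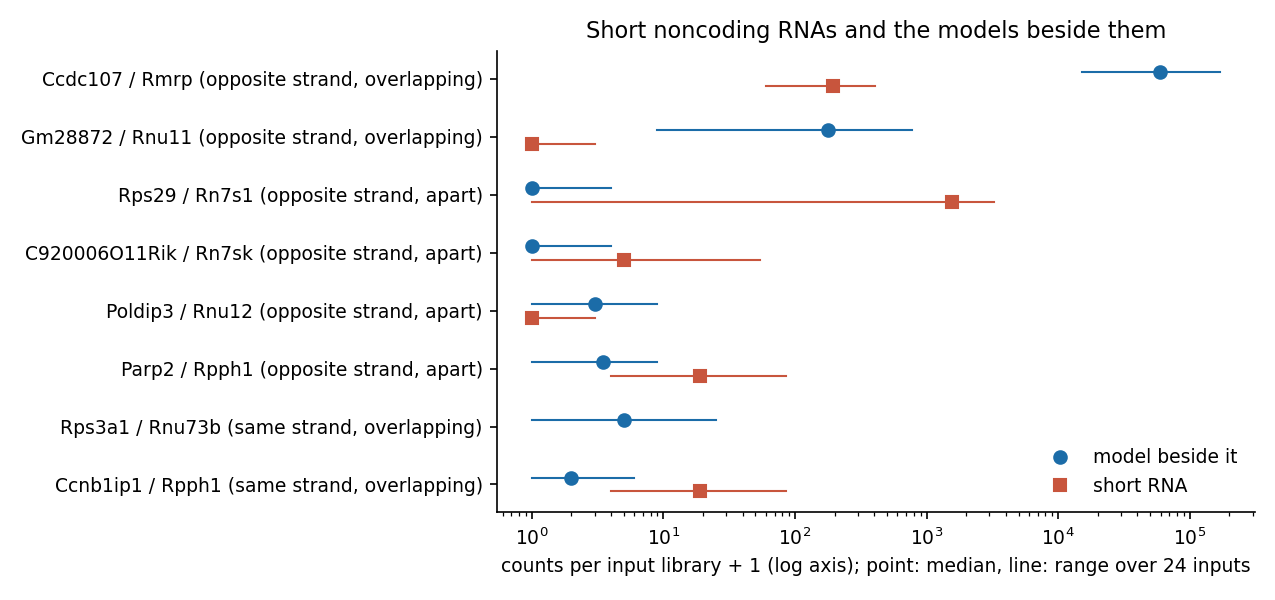
Counts per input library plus 1 (x, log axis) for short noncoding RNAs (red squares) and the models within 1 kb of them (blue circles); symbols are medians and lines the range over 24 inputs. Ccdc107 and Gm28872, which overlap an RNA on the opposite strand, have medians of 59941 and 178 counts, and the other models 4 or fewer.

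The protein genes of RNase MRP and RNase P had few counts. All 11 were listed and 10 averaged under 3 counts in the inputs. Pop1, the large scaffold subunit, had 0 to 5. Pop5 was the exception, with 5 to 360 counts in the inputs (median 172; at least 61 outside CNOT7 input replicate 10) and 6 to 93 in RIP (median 31). Its replicate 6 inputs were higher than the others by a log2 difference of 0.74 (SE 0.22, adjusted p = 0.00865; 0.66 without CNOT7 input replicate 10), against the lower value of Ccdc107 and Rmrp. The Pop5 model overlaps Rnf10 on the opposite strand over 3940 bases.

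Among 975 genes with at least 10 counts in every input, those most like Ccdc107 in log2 share were Lars2 (r = 0.905), Rmrp (0.898), Gm42418 (0.896), Gm26728 (0.896) and Tceanc2 (0.850), over 24 libraries. Without CNOT7 input replicate 10, 1389 genes met that minimum and the 5 were Rps2 (r = 0.941), Lbhd1 (0.897), Gm26728 (0.889), Lars2 (0.888) and Rmrp (0.888). Lars2, a mitochondrial leucyl-tRNA synthetase gene, and Gm42418 both contain sequence resembling ribosomal RNA. A positive r was held by 18.7% of the 975 genes. Genes of a library share 1 total and 1 replicate number, and the source of the negative values was not tested. Among 303 genes in RIP the closest were Oraov1 (r = 0.738), ENSMUSG00000092267 (0.690), Rps2 (0.682), Rnf214 (0.653) and Gm26819 (0.642).

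The files hold 1 count per gene and library, with no read positions. The library kit kept strand. Whether the counts of Ccdc107 came from its coding exons, from Ccdc107-206 or from RNA of Rmrp assigned to the other strand was not tested, and these cannot be told apart from the table.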

How the data were processed

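RIP and input libraries of 4T1 cells were sequenced from a directional kit. The authors deposited a gene table of raw counts; the submitters' processing notes name BWA, HTSeq and mm9, without versions, and the annotation and strand setting are not given in the sources used here. Of 26899 genes, 8719 carry no symbol and every entry names a gene. The gene, the lists and the tests were chosen with earlier results of these data known. The test design had assumed that Ccdc107 stood out in RIP; it stands out in the inputs, and the tests were kept as written.

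Counts were filtered with filterByExpr, scaled by TMM and tested two-sided by quasi-likelihood in edgeR 4.0.16 (R 4.3.3), with Benjamini-Hochberg adjustment over all genes tested and a threshold of 0.05. Construct contrasts used 1 fit of 48 libraries in 10 groups, which share 1 estimate of the spread. Replicate effects used fits of 24 libraries with construct and replicate number. A contrast of 1 replicate number is with the mean of the other numbers. A share is the count divided by the library total. Log2 shares add 0.5 counts. Exact permutation tests used scipy 1.17.1, and adjustment statsmodels 0.14.6. Wilson intervals are at 95%; 3 counts were taken as the floor of a library. Positions, strands and transcripts came from GENCODE M21 (GRCm38), matched by identifier. Named were the genes within 50 kb of Ccdc107, those within 1 kb of a listed short RNA, the models with at least 1% of the summed RIP counts, the 5 genes most like Ccdc107 among those with at least 10 counts in every library of the kind, and the list members with the highest means. The tests were tried on simulated counts. DESeq2 1.42.0, library size alone, other filters, left-out libraries, a replicate block and other share totals were the alternatives.

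The labels number the libraries of each group alike, and the design text calls them biological replicates without saying which cultures they came from; the p-values measure the spread between these samples. Same-numbered inputs of different constructs deviated together from their group means (lowest correlation 0.129, median 0.332, highest 0.641, over 19 pairs; median 0.335 over the 18 without CNOT7 input replicate 10), so the numbers were taken to pair the inputs. Over 33 pairs of RIP libraries the lowest was 0.0331, the median 0.324 and the highest 0.672; every pair of CNOT7 or D40A RIP with vector RIP was over 0.1 (lowest 0.132 and 0.169), and the lowest was 0.0765 for E247A/Y260A and 0.0523 for M141R. Between RIP and input the lowest was 0.00369 and the median 0.147.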

Additional observations from a re-analysis of the deposited data

Results flagged for a closer look

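In 40 checks of groups of 4 or 5 libraries (the shares of Ccdc107 and Rmrp, their ratio and the total counts), 2 single libraries lay far from the rest; chance alone gives such a gap in about 1 of 20 groups. Both concern the ratio of Ccdc107 to Rmrp counts in RIP. In CNOT7 RIP replicate 9 it was 4515, with 4515 Ccdc107 counts and 1 Rmrp count, and its exact 95% interval runs from 810 to 178372. In M141R RIP replicate 8 it was 965 (5 Rmrp counts, interval 413 to 2973). Both intervals cover counting error only, since the reads carry no molecular identifiers. The Ccdc107 share of neither library stood apart, at 0.304% and 0.267%. A difference between kinds of library was also found for the replicate effect, which was not alike in RIP and input (interaction F test, edgeR, adjusted p = 1.83e-05, or 3.14e-12 without CNOT7 input replicate 10). By share of all counts, replicate 8 was lowest and replicate 10 highest in the inputs, and replicate 6 was lowest in RIP. On the TMM-scaled sizes that this test uses, replicate 9 was the lowest RIP library of vector, E247A/Y260A and M141R. Replicate 6 was the lowest of CNOT7 and D40A.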

How the results depend on the processing

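The adjusted p of Ccdc107 stayed above 0.05 in all construct comparisons under each alternative; the lowest was 0.282, for D40A input against vector input with the replicate block in inputs alone and without CNOT7 input replicate 10. The F tests of any replicate effect passed under each alternative. M141R RIP against vector RIP was 0.058 with library size alone, and 0.065 in the exact permutation and sign-flip tests on log2 shares. D40A RIP against CNOT7 RIP was -0.094 with library size alone, -0.0083 with no filter, -0.091 in the permutation test and -0.042 in the sign-flip test. E247A/Y260A RIP against CNOT7 RIP was 0.058 with at least 10 counts in every library, 0.042 with DESeq2, 0.065 in RIP libraries alone, 0.037 with the replicate block and 0.015 with the block in RIP libraries alone. Replicate 9 RIP against the others was 0.062 with library size alone, 0.076 with at least 10 counts, 0.048 with DESeq2 and 0.063 in the permutation test, and passed at -0.45 with no filter. Replicate 6 input against the others was -0.86, no longer past the threshold, in the permutation test. The causes were not tested. The replicate block (pairing by number) changed no call; blocked RIP libraries alone gave CNOT7 against vector -0.30 (adjusted p = 0.854), D40A against vector -0.24 (adjusted p = 0.503) and E247A/Y260A against vector -0.28 (adjusted p = 0.413). The block in libraries of 1 kind alone (inputs or RIP) and the sign-flip test were added after seeing the data, as was the interaction test. Without the 7 leading RIP models in the total, RIP shares were 4.83% (vector), 4.09% (CNOT7), 3.70% (D40A), 3.98% (E247A/Y260A) and 4.50% (M141R). On TMM-scaled sizes they were 1.32%, 0.985%, 1.06%, 0.971% and 1.09%, and input shares were 2.14% (vector), 3.29% (CNOT7), 3.60% (D40A), 2.86% (E247A/Y260A) and 2.88% (M141R). With each library left out in turn, CNOT7 input against vector input ranged from -0.043 to 0.93, and D40A, E247A/Y260A and M141R input from 0.30 to 1.04, 0.10 to 0.72 and 0.21 to 0.74; CNOT7, D40A, E247A/Y260A and M141R RIP against vector RIP ranged from -0.51 to -0.29, -0.48 to -0.18, -0.57 to -0.30 and -0.42 to -0.18, D40A, E247A/Y260A and M141R RIP against CNOT7 RIP from -0.080 to 0.22, -0.18 to 0.093 and -0.025 to 0.20, replicate 9 RIP against the others from -0.30 to 0.079 and replicate 6 input against the others from -1.02 to -0.74. With no filter, CNOT7 input against vector input called 44 of 26899 genes tested in place of 0 of 6931, any construct effect in input 73 in place of 2, and the other construct tests at most 4 in place of 0. DESeq2, over the 6931, called 4 for M141R input against vector input, 2 for any construct effect in RIP and 5 for that in input, and the block in RIP libraries alone called 7 of 1320 for M141R RIP against vector RIP. The block in inputs alone without CNOT7 input replicate 10 called 5 of 3798 for D40A input against vector input. Any construct effect in input called 0 with the replicate block, in inputs alone and with at least 10 counts (208 tested). Any replicate effect in RIP called 1037 of 1320 genes tested, and 4164 of 23883 with no filter or 254 of 304 with at least 10 counts. In input it called 2670 of 3848, and 4028 of 24646 or 755 of 976. Replicate 9 RIP called 738 of 1320, and 5102 of 23883 or 139 of 304, and replicate 6 input 1816 of 3848, and 2022 of 24646 or 526 of 976. The interaction called 861 of 6931, and 1994 of 6931 with library size alone. Depth is no limit for Ccdc107, whose lowest count was 3391. It limits Rmrp in RIP, where the median was 22 counts, and most neighbours, which averaged under 10 counts.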

Other observations

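Some other models with high input counts also face an abundant or well known gene on the opposite strand; these pairs were chosen after their values were seen. Patl2 had 180673 counts over the 24 inputs, and B2m, the light chain of MHC class I on the other strand, had 297. Snx22 had 92137 counts and Ppib, the chaperone cyclophilin B, had 435. Pop5 had 4172 counts against 105 for Rnf10, and Cd72 had 2694 against 18 for Tesk1. Ccdc107 had 1639804 against 4704 for Rmrp. The ratio of the sums was 608 for Patl2 to B2m, 349 for Ccdc107 to Rmrp, 212 for Snx22 to Ppib, 150 for Cd72 to Tesk1 and 39.7 for Pop5 to Rnf10. The first-named model had more counts in all 24 inputs in 4 of these pairs. Patl2 had more than B2m in 23 of 24, the exception being CNOT7 input replicate 10, with 1 Patl2 and 9 B2m counts. The housekeeping genes Actb and Gapdh had 0 to 38 and 0 to 9 counts per input.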
